A study of Mus musculus with 4 samples.

Results

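A group of 9 genes of mast cells and basophils was followed through RNA-seq of *in vitro* MDSCs (myeloid-derived suppressor cells, immature myeloid cells that restrain T cells). They were taken by symbol from the 24346 genes of the files, and 9 of 9 were found: the granule proteases *Cpa3*, *Mcpt8* and *Prss34*, the IgE receptor chains *Fcer1a* and *Ms4a2*, the histamine-forming enzyme *Hdc*, the transcription factor *Gata2*, the IL-33 receptor *Il1rl1* and the cytokine *Il4*. The cells were bone marrow (BM) cells of C57BL/6J mice cultured for 4 days with 40 ng/ml GM-CSF in every culture. The study worked with female mice of 6 to 8 weeks. In the G-CSF group (n = 2) the medium also held 5 ng/ml G-CSF, and in the Control group (n = 2) it did not. The comparison asks how G-CSF, given on top of GM-CSF, alters the expression profile of the cells. The sources used here name no sort or enrichment of the cells before RNA extraction, and call the 2 libraries of a group biological replicates without saying whether they came from separate mice. The p-values measure the spread between these libraries only. FPKM gives shares of a library and not cell numbers, and the paper reports more cells in all with G-CSF. Because RNA was sequenced in bulk, a smaller share of mast cells or basophils and less of their RNA per cell cannot be told apart. A change in other cells that express these genes cannot be told apart from these either.

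Mast cells and basophils are rare granulocytes that carry the high-affinity IgE receptor, store histamine and proteases in granules and release them when antigen cross-links receptor-bound IgE. The receptor consists of an IgE-binding alpha chain (*Fcer1a*), a signal-amplifying beta chain (*Ms4a2*) and gamma chains (*Fcer1g*) that myeloid cells also use for other Fc receptors. *Mcpt8* marks basophils in the mouse, whereas the chymases and tryptases of mature mast cells (*Mcpt4*, *Cma1*, *Tpsb2*, *Tpsab1*) are low or absent in basophils. Both cell types depend on *Gata2*, and basophils and some mast cells arise in BM cultures under IL-3 or related cytokines.

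The files give FPKM, in which fragments are divided by transcript length and by the library's mapped reads, a scale on which levels of different genes can be compared per length. Depth was estimated from the steps between the lowest values at 12450000 reads in G-CSF replicate 1 to 15700000 reads in G-CSF replicate 2, with the Control libraries in between. Genes had to reach an estimated 10 reads in 2 of the libraries, and 15 over all of them, to be tested, and 11905 genes did. A gene passed the test at an adjusted p under 0.05 (limma, Benjamini-Hochberg over the genes tested), and it was called when the change was also over 2-fold. Fold changes are G-CSF over Control on the log2(FPKM + 0.1) scale, which understates the change of low genes.

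The DNA just before a RefSeq transcription start is shown first for 7 of the genes, because most of them hold a sequence feature there that their choice did not use, while *Mcpt8*, the gene with the highest level, lacks it. GATA2 belongs to a family of factors that bind the core word GATA. Each window holds the 250 bases upstream of a transcription start in RefSeq (GRCm38.p6), written 5′ to 3′ on the strand of the gene, with matches to a GATA word on either strand in capitals. The words searched were AGATAA and its relative ending in another purine, AGATAG, together with TGATAA and the corresponding word TGATAG, and no other. For *Hdc* and *Mcpt8* the RefSeq start lies downstream of the outermost start in GENCODE. The *Mcpt8* window therefore overlaps in part with the gene position given later. The *Hdc* window, with its match, lies wholly inside the gene as GENCODE places it.
Mcpt8 (chr14:56085198-56085447, minus strand): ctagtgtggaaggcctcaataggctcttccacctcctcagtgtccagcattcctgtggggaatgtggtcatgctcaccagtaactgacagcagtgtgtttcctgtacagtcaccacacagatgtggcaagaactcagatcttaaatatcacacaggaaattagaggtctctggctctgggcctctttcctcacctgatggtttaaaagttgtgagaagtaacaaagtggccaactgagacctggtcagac
Prss34 (chr17:25298144-25298393, plus strand): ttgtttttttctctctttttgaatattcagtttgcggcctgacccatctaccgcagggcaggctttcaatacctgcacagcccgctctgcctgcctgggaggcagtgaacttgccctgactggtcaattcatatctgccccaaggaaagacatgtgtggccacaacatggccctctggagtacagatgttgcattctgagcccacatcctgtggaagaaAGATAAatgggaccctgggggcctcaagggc
Cpa3 (chr3:20242182-20242431, minus strand): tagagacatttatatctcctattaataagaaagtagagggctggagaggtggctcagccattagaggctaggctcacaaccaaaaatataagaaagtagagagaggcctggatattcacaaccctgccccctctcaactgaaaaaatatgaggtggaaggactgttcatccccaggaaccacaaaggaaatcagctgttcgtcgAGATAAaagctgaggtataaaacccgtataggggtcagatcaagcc
Hdc (chr2:126618679-126618928, minus strand): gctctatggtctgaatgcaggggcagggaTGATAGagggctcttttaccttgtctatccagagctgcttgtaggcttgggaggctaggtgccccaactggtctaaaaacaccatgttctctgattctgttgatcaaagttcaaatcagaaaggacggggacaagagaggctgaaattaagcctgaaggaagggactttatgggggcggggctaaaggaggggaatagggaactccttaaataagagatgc
Fcer1a (chr1:173227230-173227479, minus strand): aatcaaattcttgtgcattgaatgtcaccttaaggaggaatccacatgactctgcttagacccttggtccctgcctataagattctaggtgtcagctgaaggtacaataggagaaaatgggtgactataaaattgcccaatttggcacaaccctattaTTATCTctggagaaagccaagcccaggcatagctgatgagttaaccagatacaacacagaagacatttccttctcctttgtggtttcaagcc
Ms4a2 (chr19:11623720-11623969, minus strand): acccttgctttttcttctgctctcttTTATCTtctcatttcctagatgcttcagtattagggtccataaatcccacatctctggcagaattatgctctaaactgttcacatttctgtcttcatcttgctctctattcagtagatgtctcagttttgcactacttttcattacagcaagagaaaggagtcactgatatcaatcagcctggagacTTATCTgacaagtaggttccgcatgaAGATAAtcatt
Il1rl1 (chr1:40429320-40429569, plus strand): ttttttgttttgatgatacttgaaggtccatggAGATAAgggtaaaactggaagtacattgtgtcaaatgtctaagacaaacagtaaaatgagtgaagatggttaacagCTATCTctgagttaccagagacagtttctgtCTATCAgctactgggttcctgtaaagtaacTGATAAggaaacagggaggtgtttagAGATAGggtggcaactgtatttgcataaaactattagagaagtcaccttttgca
In *Cpa3* the match lies 46 to 41 bases before the start, and in *Prss34* 31 to 26 bases before it. *Ms4a2* has 3 matches, the nearest 11 to 6 bases before the start. The window before the first exon of *Il1rl1* has 5 matches, and a second start of this gene further downstream has 1. In all, 8 of the 12 windows of the 9 genes held at least 1 match, which covers 7 of the 9 genes and leaves out *Mcpt8* and *Gata2* itself. Of the 32851 promoter windows of this length in the table, 26.5% held a match, and 6.4% held 2 or more. The other words searched on both strands were TGTGGT (the RUNX core, 4 of 12 windows against 14.0% of all windows), TTGCNNAA (C/EBP, 3 of 12 against 9.56%) and TTCNNNGAA (STAT, 0 of 12 against 7.02%). A match describes the letters of the window and says nothing of binding in these cells.

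With G-CSF, 5 of the 8 genes tested fell and 0 rose. These were *Hdc*, *Fcer1a*, *Prss34*, *Mcpt8* and *Cpa3*, with losses of 26.9% to 54.5% of the Control level. Among all genes tested, 24.3% passed in either direction, 11.6% as lower and 12.7% as higher. *Gata2*, *Ms4a2* and *Il1rl1* had lower means with G-CSF but did not pass, and *Il4* was too low to test. The G-CSF libraries lay below both Control libraries without overlap in 7 of the 8 genes tested, as in 32.6% of all genes tested. Only *Hdc* was called at more than 2-fold lower, and 0.907% of all genes tested were. In this fit the variance of a gene follows its level. Without that trend 0 of the 8 passed, with a lowest adjusted p of 0.0533, and 7 of the 8 were at an unadjusted p under 0.05.

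**Figure D1:**
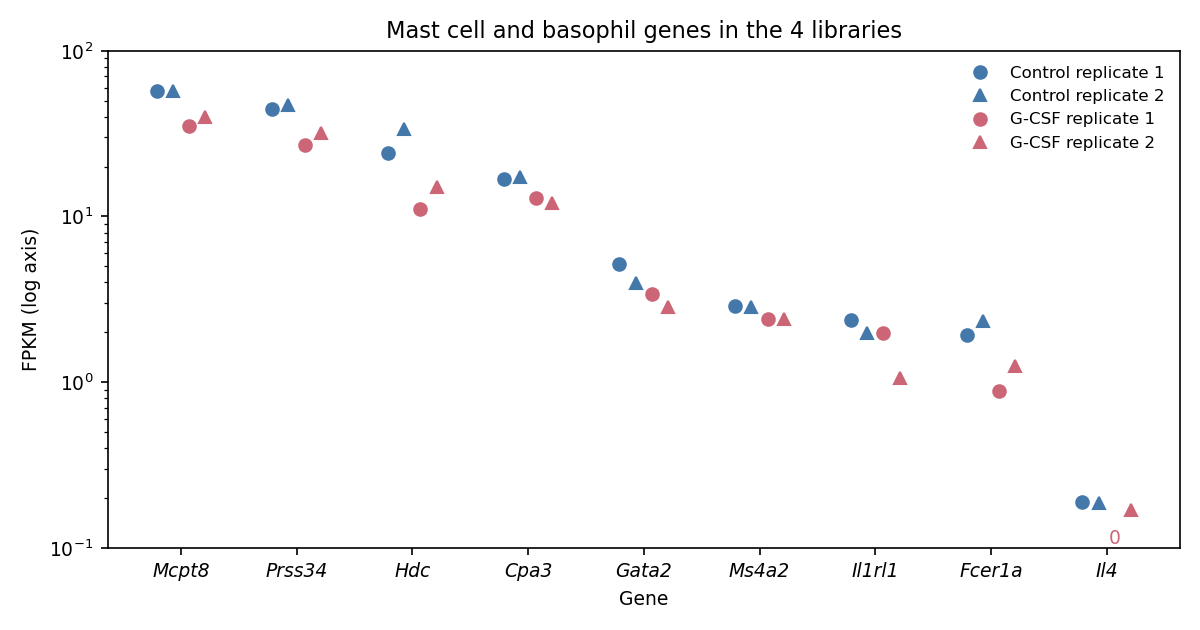
FPKM of the 9 genes (log axis) in the 2 Control libraries (blue) and the 2 G-CSF libraries (red), circles for replicate 1 and triangles for replicate 2, with genes ordered by mean level and a 0 for the library in which *Il4* is listed at 0. The blue points lie above the red ones for every gene but *Il1rl1*, where 1.982 FPKM in G-CSF replicate 1 slightly exceeds 1.977 FPKM in Control replicate 2, and *Il4* stands at 0 or about 1 read per library.

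The serine proteases *Mcpt8* and *Prss34* had the highest levels of the 9 genes in every library. *Mcpt8* (chr14:56082166-56085273, minus strand, GRCm38), a serine protease of basophil granules, was at 57.4 and 56.8 FPKM in Control and at 34.9 and 39.8 FPKM with G-CSF. It fell by 0.61 on the log2 scale (SE 0.069, adjusted p = 0.00434), to 65.4% of the Control mean. These values rest on an estimated 272 to 503 reads per library. *Prss34* (chr17:25298394-25300165, plus strand), which encodes mMCP-11, a tryptase of basophils and some mast cells, was at 44.3 and 47.3 FPKM in Control and at 26.9 and 31.7 FPKM with G-CSF. It fell by 0.65 (SE 0.084, adjusted p = 0.00545). The ratio of *Mcpt8* to *Prss34* was 1.30 and 1.20 in the Control libraries, against 1.30 and 1.26 with G-CSF, so the ranges of the groups overlapped.

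*Cpa3* (chr3:20215620-20242181, minus strand) encodes carboxypeptidase A3, a metalloprotease of mast cell granules that basophils and early progenitors also make. It was at 16.8 and 17.2 FPKM in Control and at 12.8 and 12.0 FPKM with G-CSF. It fell by 0.45 (SE 0.068, adjusted p = 0.00781), or 1.37-fold, with a 95% confidence interval of 1.22-fold to 1.53-fold. The 3 proteases passed whichever library was left out. Their transcripts share no 75-base window with another gene, but the microRNA genes *Mir6949* and *Mir7007* lie inside *Mcpt8* and *Cpa3* on the same strand.

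*Hdc* (chr2:126593667-126619299, minus strand) encodes histidine decarboxylase, the enzyme that makes histamine, which immature neutrophils are also known to express. It was at 24.1 and 33.9 FPKM in Control and at 11.1 and 15.04 FPKM with G-CSF. Both G-CSF values were lower than both Control values, but the replicates differed more than those of the proteases. The gene fell by 1.14 (SE 0.189, adjusted p = 0.0102), or 2.2-fold, with an interval of 1.61-fold to 3.01-fold. The call over 2-fold depended on single libraries. Without Control replicate 2 or without G-CSF replicate 1 the log2 fold change was -0.89 or -0.92, so that *Hdc* passed without being called, and without Control replicate 1 or G-CSF replicate 2 it was -1.38 or -1.35.

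The chains of the IgE receptor were low. *Fcer1a* (chr1:173221284-173227214, minus strand), the chain that binds IgE, was at 1.92 and 2.33 FPKM in Control and at 0.883 and 1.25 FPKM with G-CSF. It fell by 0.94 (SE 0.212, adjusted p = 0.0239), to 50.3% of the Control mean, on an estimated 18 and 23 reads in Control and 8 and 14 reads with G-CSF. At this depth the result turned on single libraries, and the adjusted p was 0.0827 without Control replicate 2 and 0.0772 without G-CSF replicate 1. Without Control replicate 1 or G-CSF replicate 2 it was called as well, at -1.07 or -1.17.

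*Ms4a2* (chr19:11615523-11623719, minus strand), the beta chain, was at 2.89 and 2.85 FPKM in Control and at 2.41 and 2.39 FPKM with G-CSF. The values of the groups did not overlap and the replicates nearly coincided. The difference of -0.25 (SE 0.124) did not pass (adjusted p = 0.19), and its interval ran from -0.54 to 0.05. The estimated reads of *Ms4a2* range from 13.1 to 87.9 over the libraries, depending on which of its 4 transcripts was expressed, and 1.25% of its 75-base windows occur in *Ms4a4b* as well. The ratio of *Ms4a2* to *Fcer1a* was 1.51 and 1.22 in the Control libraries, against 2.73 and 1.91 with G-CSF. It is imprecise, because *Fcer1a* had an estimated 8 and 14 reads with G-CSF.

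The gamma chain *Fcer1g*, which myeloid cells express widely, stood far above *Fcer1a* on the FPKM scale. It was at 1233 and 1242 FPKM in Control and at 914 and 888 FPKM with G-CSF, and it fell by 0.46 (SE 0.048, adjusted p = 0.00376). The ratio of *Fcer1g* to *Fcer1a* was 644 and 534 in the Control libraries, against 1035 and 710 with G-CSF. This ratio is imprecise for the same reason, the few reads of *Fcer1a*.

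*Gata2* (chr6:88193891-88207032, plus strand), a zinc-finger factor of blood progenitors, mast cells and basophils, was at 5.16 and 3.99 FPKM in Control and at 3.39 and 2.85 FPKM with G-CSF. Both G-CSF values were below both Control values. The difference of -0.53 (SE 0.161) just missed the threshold (adjusted p = 0.0552), and its interval ran from -0.92 to -0.15. *Gata2* passed without Control replicate 2 (-0.72, adjusted p = 0.0308), with voom on estimated reads (adjusted p = 0.0264) and with a filter of 10 reads in every library (adjusted p = 0.0487). It moved further from the threshold without Control replicate 1 (-0.35, adjusted p = 0.214), without G-CSF replicate 2 (-0.41, adjusted p = 0.173) and with no filter (adjusted p = 0.131).

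*Il1rl1* (chr1:40429570-40465415, plus strand) encodes ST2, the receptor through which mast cells, basophils and other cells sense IL-33. Its values overlapped, with 2.38 and 1.98 FPKM in Control and 1.98 and 1.06 FPKM with G-CSF. The difference of -0.55 (SE 0.284) did not pass (adjusted p = 0.201), and its interval from -1.23 to 0.13 includes both no change and a fall of over 2-fold. The value rested on single libraries. It was -0.97 without G-CSF replicate 1 (adjusted p = 0.0335) and -0.12 without G-CSF replicate 2 (adjusted p = 0.722), and -0.42 and -0.68 without Control replicate 1 and 2 (adjusted p = 0.439 and 0.209). The files give 1 value for the gene, so the membrane receptor and the soluble decoy form could not be separated. *Il4* (chr11:53602982-53618669, minus strand), the type 2 cytokine that stimulated basophils release, was at 0.188 and 0.187 FPKM in Control and at 0 and 0.17 FPKM with G-CSF. Each value above 0 corresponds to about 1 read, and no difference was detectable at this depth.

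**Figure D2:**
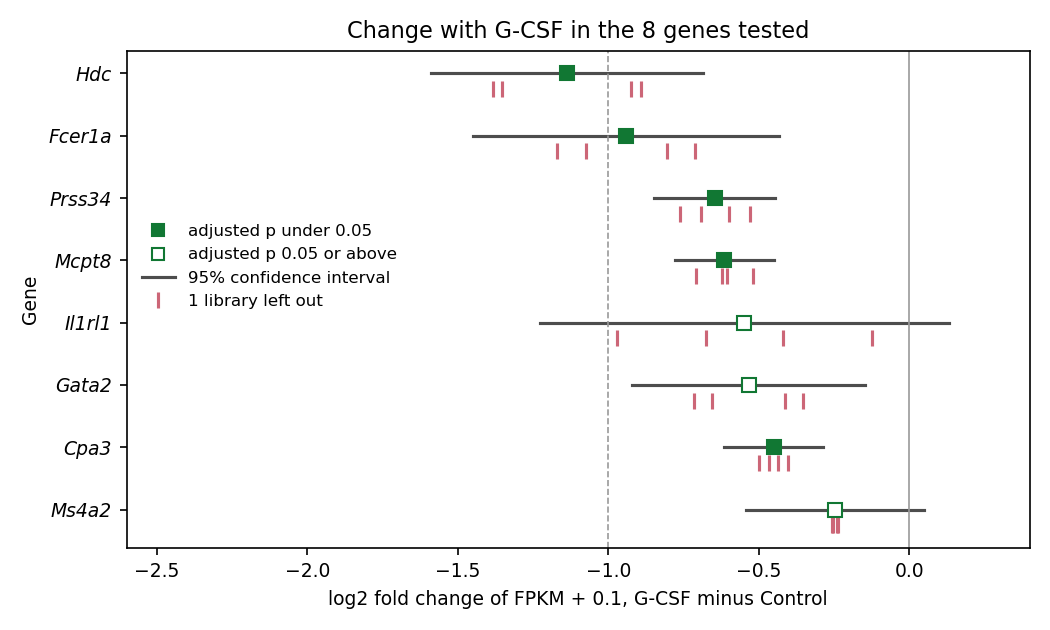
Fold changes (log2, G-CSF minus Control) of the 8 genes tested, as squares with 95% confidence intervals, filled where the adjusted p was under 0.05. Red ticks give the fold change with 1 library left out, the dashed line marks a 2-fold fall, and all squares and ticks lie left of 0.

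Ordered by level, *Mcpt8* was followed by *Prss34*, *Hdc*, *Cpa3*, *Gata2*, *Ms4a2*, *Il1rl1*, *Fcer1a* and *Il4* in both groups. In Control, neighbours were separate from each other except *Il1rl1* and *Fcer1a*. With G-CSF, *Hdc* and *Cpa3* overlapped as well, with means of 13.1 and 12.4 FPKM. The 9 genes together made up 155 and 167 FPKM in Control and 94.5 and 106 FPKM with G-CSF. *Mcpt8* and *Prss34* formed 34.1% to 37.5% and 28.4% to 29.8% of this sum over the 4 libraries. The share of *Hdc* was 15.5% and 20.4% in the Control libraries, against 11.8% and 14.2% with G-CSF. All 9 genes together took 0.0147% to 0.026% of all FPKM.

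**Figure D3:**
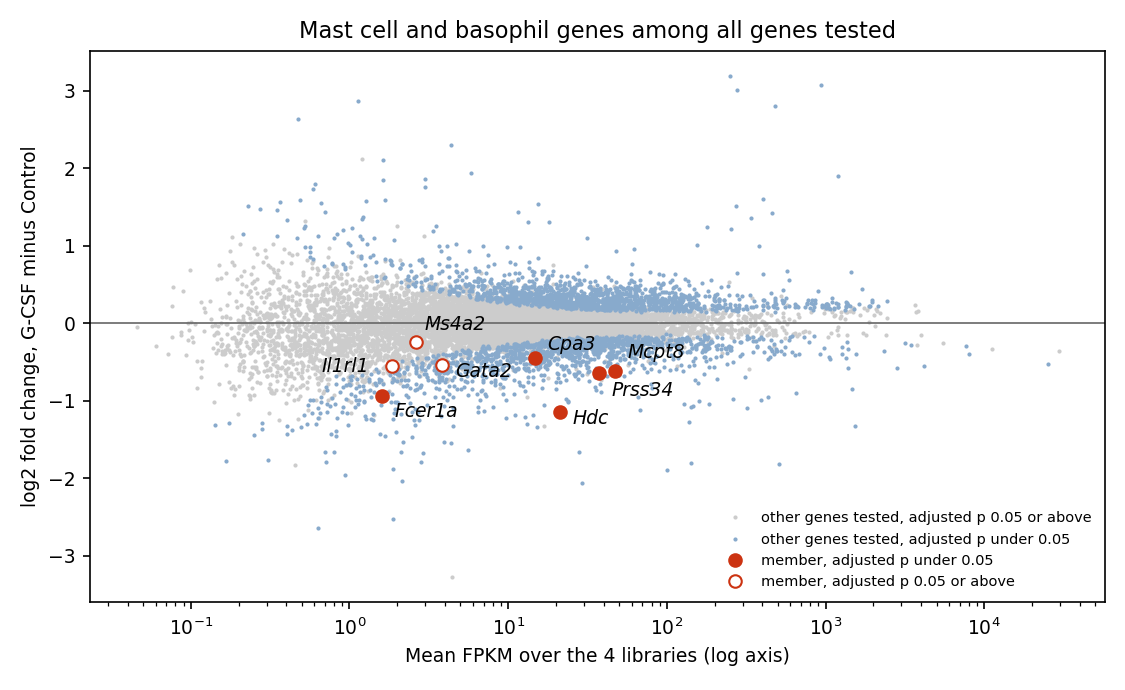
Each of the 11905 genes tested by its mean FPKM (log axis) and its fold change (log2, G-CSF minus Control), blue where the adjusted p was under 0.05 and grey otherwise. The mast cell and basophil genes are in red, filled where they passed: all 8 lie below 0, with *Hdc* the lowest at -1.14 and *Mcpt8* and *Prss34* at the highest levels.

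A set of 93 further genes of mast cells and basophils was counted in 6 lists. Of these, 68 were tested, 16 (23.5%) fell and 4 (5.88%) rose, against 11.6% of all genes tested that passed as lower and 12.7% that passed as higher. Their median log2 fold change was -0.14, and that of all genes tested was 0.00. Without the variance trend 1 of the 68 fell and 1 rose. Control means of the 16 that fell ran from 3.45 FPKM (*Il18r1*) to 1238 FPKM (*Fcer1g*), against 57.1 FPKM for *Mcpt8*. Of 4 general myeloid genes 3 fell as well, and whether the counts are particular to mast cells and basophils was not tested.

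The list of granule proteases and the proteoglycan that holds them had 13 genes, of which 3 were tested. *Mcpt4*, *Mcpt1*, *Mcpt2*, *Mcpt9*, *Cma2* and *Tpsab1*, proteases of mast cells, were listed at 0 in all 4 libraries. *Cma1* and *Tpsb2* were above 0 in Control replicate 2 only, at 0.081 and 0.24 FPKM, which is an estimated 1 and 3 reads. In contrast, 2 genes rose that are also made by neutrophil precursors. *Ctsg*, cathepsin G, was at 111 and 101 FPKM in Control and at 241 and 261 FPKM with G-CSF (+1.25, SE 0.063, adjusted p = 0.000336). *Srgn*, the core protein of serglycin, rose by 0.30 (SE 0.060, adjusted p = 0.0168). The median of the 3 tested genes was 0.30.

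In the list of IgE receptor signalling, 18 of 18 genes were tested, 6 fell and 0 rose, with a median of -0.14. The strongest change was in *Rasgrp4*, a Ras activator of mast cells and other myeloid cells, at 41.6 and 39.2 FPKM in Control and 23.5 and 24.8 FPKM with G-CSF (-0.74, SE 0.059, adjusted p = 0.0019). *Fyn*, a Src-family kinase, fell by 0.53 (adjusted p = 0.024). Smaller falls were found for *Orai1*, a calcium channel of the plasma membrane (-0.24), and *Cd63*, a granule membrane protein used to follow degranulation (-0.21), with adjusted p = 0.0247 and 0.0172. *Fcer1g* had the highest level of the list.

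Of 13 genes for histamine storage, breakdown and receptors and for lipid mediators, 10 were tested, 3 fell and 0 rose, with a median of -0.28. *Hpgds*, which makes prostaglandin D2, was at 4.68 and 5.54 FPKM in Control and at 2.88 and 3.23 FPKM with G-CSF (-0.72, SE 0.131, adjusted p = 0.013). *Alox5*, the first enzyme of leukotriene synthesis, fell by 0.42 (adjusted p = 0.00336), and its activating protein *Alox5ap*, the highest gene of the list, by 0.22 (adjusted p = 0.0246). *Slc18a2*, the transporter that loads histamine into granules, went the other way from *Hdc*. It was at 1.64 and 1.53 FPKM in Control and at 2.08 and 2.08 FPKM with G-CSF, a difference of 0.37 that did not pass (SE 0.145, adjusted p = 0.107).

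Among 16 transcription factors of the lineage, 15 were tested, 0 fell and 2 rose, with a median of -0.05. The factors that rose were *Lyl1* (+0.48, adjusted p = 0.0192) and *Lmo2* (+0.31, adjusted p = 0.0135), which act in complexes with GATA factors in progenitors. *Gata1*, which shares target sites with *Gata2*, was at 0.749 and 0.874 FPKM in Control and at 0.616 and 0.68 FPKM with G-CSF (-0.28, SE 0.211, adjusted p = 0.362). *Bhlhe40* had the highest level and did not pass (-0.27, adjusted p = 0.0731).

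Type 2 cytokines were hardly detected. *Il5*, *Il9* and *Il31* were listed at 0 in every library, *Il13* was at 0.08 FPKM in G-CSF replicate 1 and at 0 in the others, and *Il33*, the ligand of the *Il1rl1* product, did not exceed 0.034 FPKM. Of the 13 genes of this list 7 were tested, 1 fell and 0 rose, with a median of -0.14. The gene that fell was *Crlf2*, the TSLP receptor, at 36.1 and 32.2 FPKM in Control and 20.8 and 23.4 FPKM with G-CSF (-0.63, SE 0.082, adjusted p = 0.00546). *Il1rap*, the co-receptor of ST2, did not pass (-0.28, adjusted p = 0.0767), and neither did *Il2rg*, the highest gene of the list (-0.14, adjusted p = 0.0731).

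Of 20 growth factor and surface receptors, 15 were tested, 6 fell and 0 rose, with a median of -0.32. *Kit*, the stem cell factor receptor on which mast cells depend, was at 11.9 and 11.1 FPKM in Control and at 6.67 and 7.36 FPKM with G-CSF (-0.70, SE 0.089, adjusted p = 0.00518). *Il18r1* (-0.84, adjusted p = 0.00998) and *Il18rap* (-0.50, adjusted p = 0.00693), the chains of the IL-18 receptor, fell together. *Cd200r1*, an inhibitory receptor, fell by 0.38 (adjusted p = 0.00532), and *C5ar1*, the receptor of complement C5a, by 0.37 (adjusted p = 0.0052). *Cd200r3*, a basophil and mast cell relative of *Cd200r1*, was at 2.62 and 2.68 FPKM in Control and at 2.34 and 1.52 FPKM with G-CSF and did not pass (-0.46, SE 0.21, adjusted p = 0.152). *Csf2rb*, the beta chain common to the GM-CSF, IL-3 and IL-5 receptors, had the highest level (-0.15, adjusted p = 0.0645).

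**Figure D4:**
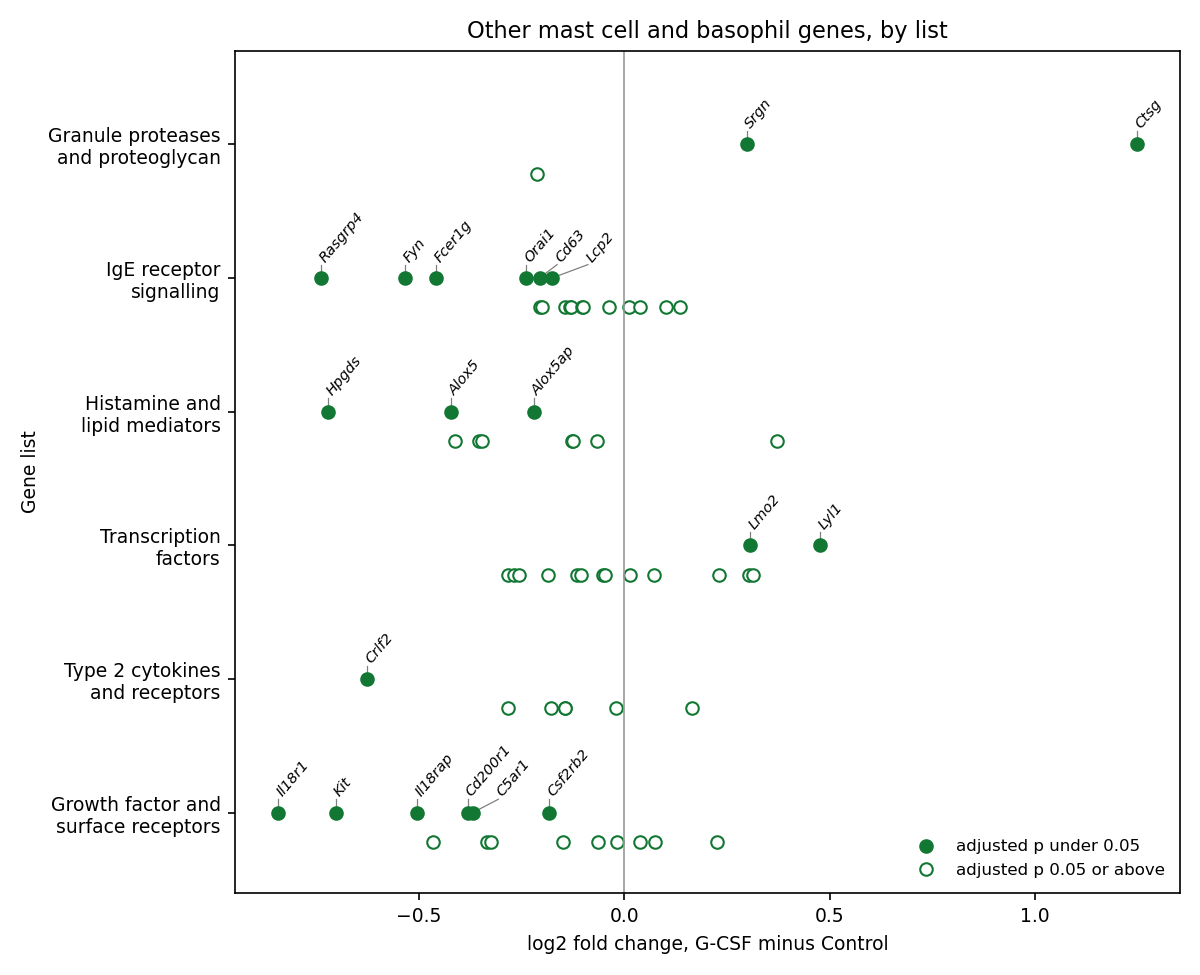
Fold changes (log2, G-CSF minus Control) of the 68 tested genes of the 6 lists, a point per gene, with genes of an adjusted p under 0.05 filled, named and set above the others of their list. The 16 filled points left of 0 include 6 of 18 tested genes in IgE receptor signalling and 6 of 15 growth factor and surface receptors. They also include 3 of 10 in histamine and lipid mediators and 1 of 7 in type 2 cytokines and receptors. The 4 on the right are *Ctsg*, *Srgn*, *Lyl1* and *Lmo2*.

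The genes were set beside defining markers. Of the markers, *Mcpt8*, *Prss34*, *Fcer1a*, *Ms4a2* and *Cpa3* are members themselves and give no independent check of the label. Of 8 basophil markers all 8 were tested and 3 fell, where 11.6% of all genes tested passed as lower. The 8 together summed to 134 to 138 FPKM in Control and 94.6 to 97.7 FPKM with G-CSF. Of 15 mast cell markers 7 were listed at 0 in every library and 4 were tested. The 3 that fell were *Cpa3*, *Kit* and *Rasgrp4*, each also expressed by other myeloid cells or progenitors. The other marker tested, *Mitf*, did not pass in the same limma fit (-0.26, adjusted p = 0.0666). The basophil markers that fell were the members *Mcpt8*, *Prss34* and *Fcer1a*, which are not independent of the results above. *Mcpt8* and *Prss34* alone summed to 102 and 104 FPKM in Control against 61.8 and 71.5 FPKM with G-CSF. The other 6 markers summed to 36.0 and 29.8 FPKM in Control against 32.8 and 26.3 FPKM with G-CSF, and these ranges overlap. That sum is mostly *Cyp11a1* and *Il3ra*, with Control means of 16.7 and 8.37 FPKM, whose values overlapped between the groups. *Itga2* overlapped as well, while in *Fcer1a*, *Ms4a2* and *Cd200r3* both G-CSF values were below both Control values. The level of *Itga2* was low, at 0.13 and 0.246 FPKM in Control and 0.18 and 0.16 FPKM with G-CSF. The chymases and tryptases of mast cells were at or near 0, so the full set of mature mast cell genes was not seen. The basophil genes at high levels were chiefly the members *Mcpt8* and *Prss34*, which do not show independently that basophils were present.

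**Figure D5:**
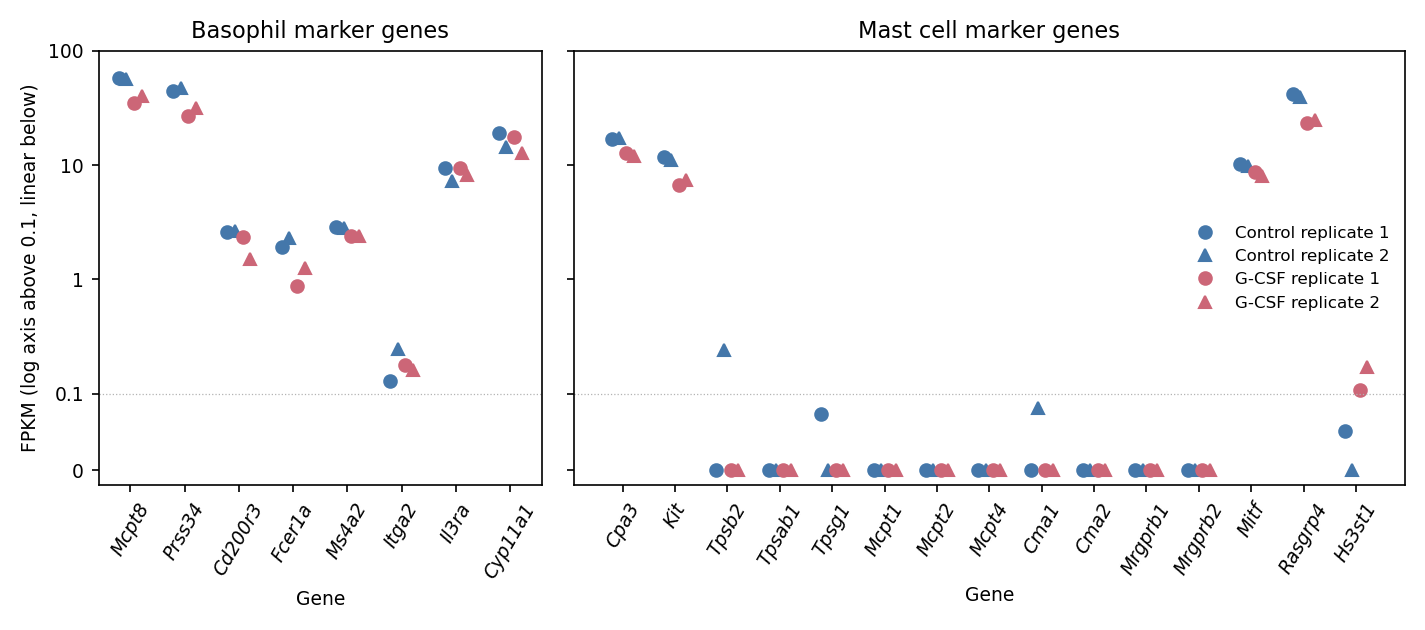
FPKM of 8 basophil marker genes (left) and 15 mast cell marker genes (right) in the 4 libraries, on an axis that is logarithmic above 0.1 and linear below, with blue for Control and red for G-CSF. *Mcpt8* and *Prss34* lie above 20 FPKM in every library, whereas 7 mast cell markers, *Mcpt4* and *Tpsab1* among them, lie at 0.

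Markers of other cells were counted in the same comparison, in which 11.6% of all genes tested passed as lower and 12.7% as higher. Of 9 eosinophil markers 7 were tested and 3 fell, with sums of 567 and 673 FPKM in Control and 375 and 338 FPKM with G-CSF. Of 10 neutrophil markers in the files 6 fell and 2 rose, the latter being *Elane* and *Prtn3* of early precursors. For T cell markers, 2 of 3 tested fell, with sums of 3.71 to 4.03 FPKM against 2.05 to 2.54 FPKM. Of the progenitor markers tested, 1 of 5 fell, *Kit*. Counts that passed in other lists were 1 of 5 for megakaryocyte and erythroid cells, 1 of 3 for B cells and 0 of 2 for NK cells and innate lymphoid cells, all lower, while 1 of 6 monocyte markers fell and 1 rose, and 3 of 4 general myeloid genes fell. The part of these shifts in the results on the mast cell and basophil genes was not tested. The extract protocol in the labels names liver as the tissue, but of 6 liver markers *Alb*, *Apoa1*, *Ttr* and *Fgb* were listed at 0 in all libraries. The others were low, with *Cyp2e1* at 1.07 and 0.784 FPKM in Control and 0.578 and 0.461 FPKM with G-CSF, and *Serpina1a* at no more than 0.169 FPKM.

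The genes whose pattern over the 4 libraries was closest to *Mcpt8*, the member with the highest level, were sought among all other genes tested. As a measure, the Euclidean distance between log2(FPKM + 0.1) values was used, each gene centred on its mean. The nearest were *Gadd45g* (0.0405), *Stk32c* (0.0422), *Tmcc1* (0.0463), *Ceacam19* (0.0526) and *Bri3* (0.0549). *Bri3*, for instance, was at 75.5 and 71.4 FPKM in Control and at 45.3 and 52.4 FPKM with G-CSF. *Prss34* was at a distance of 0.0885, *Cpa3* at 0.26 and *Hdc* at 0.657. Over only 4 libraries the distance is a description, with no test.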

How the data were processed

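*In vitro* MDSCs gave 4 stranded mRNA libraries (2 Control, 2 G-CSF), which were read from a single end over 75 bases. The authors deposited 1 table of FPKM per library. The unit is inferred from the values and from Cufflinks in the submitters' processing notes, which name TopHat2 2.0.13, Bowtie2 2.2.3, SAMtools 0.1.19, Cufflinks 2.2.1 and the build mm10. The annotation is not given in the sources used here. As Cufflinks assigns reads shared by isoforms or similar genes by a model, such values are uncertain.

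Groups and replicate numbers come from the labels. Estimated reads are FPKM times transcript length (GENCODE M21 on GRCm38, median of the basic transcripts less 210 bases) times depth. Depth and the 210 bases were chosen so that the low values fell best on whole reads. Of 1913 such values, 66.8% were then whole to within 0.05 reads. Evenly spread values would give 10.0% at settings fixed in advance, which these were not. The names of 23976 of 24346 genes matched. Genes without a length or with short transcripts (1713) were left out.

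log2(FPKM + 0.1) was compared with limma 3.58.1 in R 4.3.3 (a linear fit per gene with eBayes, trend = TRUE, and two-sided p) over 11905 genes, with Benjamini-Hochberg adjustment over all of them. Values were not rescaled. Replicates of a group differed by more than sampling noise (chi-square per degree of freedom 4.01 and 3.65), so none was counted as a duplicate. This does not show whether they came from separate mice. Alternatives changed the scaling, filter, pseudocount, variance model, replicate block and libraries.

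The members and lists were chosen with earlier results of these data known, and no list was tested as a set. Named were all members, up to 5 genes per list that passed, by smallest p, the gene of each list with the highest mean, 12 fixed partners and the 5 genes nearest to *Mcpt8*. Other genes named as listed at 0, and markers, were named after their values were seen.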

Additional observations from a re-analysis of the deposited data

How the results depend on the processing

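All 111 values of the 8 tested genes under 14 alternatives stayed below 0, and 97 stayed on the same side of the threshold. For results that moved, the cause was not tested unless stated. Without the variance trend 0 of the 8 genes passed (adjusted p from 0.0533 for *Cpa3* and *Mcpt8* to 0.0682 for *Hdc* among the 5 that had passed, and up to 0.293 for *Il1rl1*) and 0 were called over 2-fold. Of all genes tested, 120 fell and 79 rose instead of 1380 and 1517, of which 48 and 33 over 2-fold instead of 108 and 60, and 1 gene fell and 1 rose in the 6 lists instead of 16 and 4. Without a filter, 744 fell and 882 rose, 2 list genes rose, and *Fcer1a* did not pass (adjusted p = 0.0766). With 10 reads in every library, *Fcer1a* was not tested, which left 7 of the genes, and 39 of all genes rose over 2-fold. With a pseudocount of 1 FPKM, 32 fell and 24 rose over 2-fold. With voom 7 list genes rose, and *Fcer1a* did not pass (adjusted p = 0.0797). With 1 library left out (the lone library of a group is assumed to vary like the others), 5 of the 8 genes passed each time, though not the same 5, and 0 to 2 were called. Of all genes, 732 to 1037 fell and 785 to 930 rose, of which 79 to 125 and 40 to 71 over 2-fold, and 11 to 14 list genes fell and 2 to 5 rose. The replicate numbers are not said to pair the cultures. Replicate differences of the groups correlated at r = 0.255 across genes in 2 pairs. With the replicate block 6 of the 8 genes passed, *Gata2* included (adjusted p = 0.0102), 25 list genes fell, and 1961 of all genes fell and 2044 rose. Depth left *Il4* untested, at 0 or about 1 read per library, and *Fcer1a* at an estimated 8 to 23 reads.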
